A study of Mus musculus with 4 samples.

Results

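The genes described here make cholesterol, sense it, take it up, oxidise it or export it. They were chosen by symbol, as 31 named genes of these processes, and all 31 are among the 31053 genes of the count matrices. RNA was counted in single live CD45.2+ cells sorted from the lungs of 4 mice of strain C57BL/6J at 10 weeks of age, with 1 library per mouse. The 2 mice called WT carried Lmna-flox/flox without Cre (Vav1-cre-/-), and the 2 mice called Lmna_KO carried the same floxed alleles with Vav1-cre+/-. Vav1-Cre acts in blood-forming cells and their descendants, so the deletion of Lmna is aimed at immune cells. Deletion in other lung tissue was not tested here. Because Cre was present in both knockout mice and in neither WT mouse, its own effects and those of losing Lmna cannot be told apart.

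Cholesterol is built from acetyl-CoA by a chain of enzymes whose genes are switched on by SREBP-2 (gene Srebf2) when the endoplasmic reticulum is short of sterol. Scap carries SREBP proteins to the Golgi for activation, and Insig1 and Insig2 hold Scap back when sterol is plentiful. Oxysterols act the other way: 25-hydroxycholesterol, made by the enzyme of Ch25h, binds Insig proteins and so blocks SREBP-2, and oxysterols also bind LXR (gene Nr1h3 for the form typical of macrophages). LXR switches on the exporters Abca1 and Abcg1, the ubiquitin ligase Mylip, which removes lipoprotein receptors from the cell surface, and Srebf1 with its fatty acid synthesis targets. Alveolar macrophages clear surfactant lipid and are known for high LXR-driven efflux. A change driven by SREBP-2, a change driven by LXR and a change of Ch25h alone therefore differ in which members move, and the members are reported in those groups.

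The 4 libraries held 3860 to 4322 cell barcodes and 21780914 to 27045250 unique molecular identifiers (UMIs, counted RNA molecules), and 14720 cells were left after filters. Clusters of cells were named from marker genes, which gave 10 classes with at least 25 cells in every library. The alveolar macrophage-like class had 218 and 230 WT cells but 51 and 32 knockout cells, and its summed counts were 3630994, 2978553, 648236 and 544172 UMIs (WT 1, WT 2, knockout 1, knockout 2, the order used throughout). In that class the 10 alveolar macrophage markers summed to 18560 to 21969 raw CPM in the 4 libraries (raw CPM are UMIs scaled to 1000000 UMIs of the class). T cell precursor-like cells made up 11.7% of WT 2 and 0.344% of knockout 2 and were absent from the kept cells of the other libraries. Only 27 of 16501 barcode sequences occurred in more than 1 library. Lmna itself was at 378.2, 337.5, 58.8 and 81.2 CPM (the same scale with library sizes adjusted by edgeR's TMM factors) in alveolar macrophage-like cells, and it fell by 2.37 ± 0.18 on the log2 scale (SE, edgeR, adjusted p = 5.87e-09). The labels do not say which exons the floxed allele removes, so remaining 3' counts cannot be read as remaining protein.

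The first comparison asked which members differed between knockout and WT in alveolar macrophage-like cells. Ch25h was the member that rose, 2.78-fold, and Fasn, the fatty acid synthase, was the member that fell. Of the 18 sterol synthesis enzymes, 17 were measured well enough to test and none passed; none of the 6 genes of SREBP control and sterol carriage passed, and neither LXR nor any of its efflux and uptake targets did. At an unadjusted p under 0.05, 10 of the 30 members tested differed, against 19.8% of all genes, and 21 of the 30 had a negative log2 fold change. Across all 8889 genes tested in this class, 6.23% passed the same edgeR threshold (adjusted p under 0.05), 3.42% as higher and 2.81% as lower, so 2 of 30 members is close to that background.

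**Figure D1:**
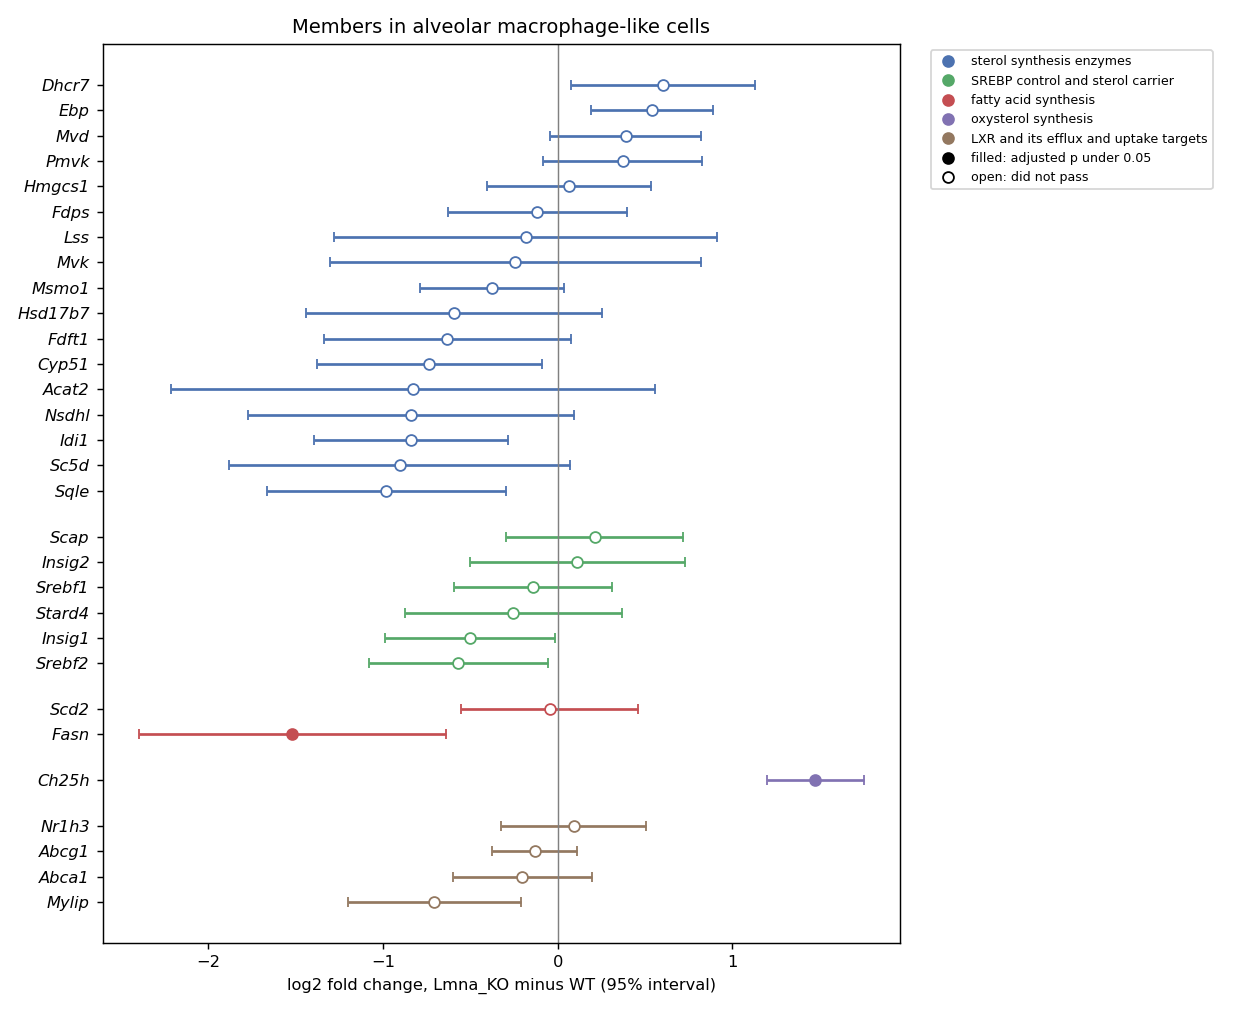
Log2 fold changes (knockout minus WT, with 95% intervals from the edgeR fit) of the 30 members tested in alveolar macrophage-like cells, grouped by role; filled points passed an adjusted p of 0.05. Ch25h stands alone on the right at 1.47 and Fasn on the left at -1.52, while the enzymes spread from -0.98 to 0.60.

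Ch25h (ENSMUSG00000050370, mm10 chromosome 19, 34473778 to 34475164, minus strand, protein coding) encodes cholesterol 25-hydroxylase. Its normalised counts were 131.6 and 131.1 CPM in the WT libraries and 360.4 and 370.1 CPM in the knockout libraries. The knockout libraries lay far above the WT libraries, and the gap was many times the spread within either genotype (131.4 ± 0.387 against 365.3 ± 6.83, SD, n = 2). The log2 fold change was 1.47 ± 0.13 (SE, edgeR, adjusted p = 2.19e-07), with a 95% interval of 1.20 to 1.75. It rested on 882 WT and 423 knockout UMIs. An antisense gene, Gm26902, overlaps Ch25h and had 14, 14, 5 and 9 UMIs in the same cells; whether the counting used strand is not given in the sources used here.

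A larger share of knockout cells carried a Ch25h UMI. A Ch25h UMI was found in 42.7% (95% exact binomial interval 36.0 to 49.5) and 40% (33.6 to 46.6) of WT alveolar macrophage-like cells. The shares in the knockout libraries were 76.5% (62.5 to 87.2) and 84.4% (67.2 to 94.7). These intervals cover counting error only. After every cell was thinned to 6443 UMIs, which left 205, 203, 39 and 31 cells, the shares were 32.7%, 34% for WT and 66.7%, 61.3% for knockout, so the 2 genotypes still did not overlap. The tenth of cells with most Ch25h held 59.9% and 59.3% of its UMIs in WT and 38.3% and 35.7% in knockout. In B cell-like cells, which serve as the reference for free RNA in droplets, 2 of 973 cells of WT 1 had a UMI, and 0 of 937 and 0 of 954 knockout cells, which allows shares of up to 0.32% and 0.314%. The median cell had 13391 to 16908 UMIs in the macrophage-like class and 3412 to 3872 in the B cell-like class.

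Alveolar macrophage-like cells held 1305 of the 1399 Ch25h UMIs in all kept cells. The 9 other classes that were tested held 10 UMIs in 12553 cells, at most 2 in any library, so Ch25h could not be tested in them. The monocyte, neutrophil and interstitial macrophage classes were thus at or near 0. Of the 25 marker lists, only the platelet list was higher in both knockout than in both WT libraries of the macrophage-like class (11.8 and 11.4 against 17.0 and 45.9 raw CPM), with Ppbp, Gp9 and Gp1bb at 0 in all 4 libraries, and platelet-like cells held 1 Ch25h UMI. In both knockout libraries 8 lists were lower: interstitial macrophage (1190 and 1198 against 765 and 781 raw CPM), nonclassical monocyte (781 and 633 against 332 and 404), classical monocyte (60.9 and 47.7 against 18.5 and 38.6), conventional dendritic cell 2 (1539 and 1640 against 1356 and 1387), neutrophil, regulatory T cell, gamma delta T cell and basophil. Their part in the result was not tested. Cells expressing 3 or more of 28 G2/M genes made up 44.5%, 30.9%, 23.5% and 37.5% of the class, and without them Ch25h had a log2 fold change of 1.26 ± 0.17 (edgeR adjusted p = 5.77e-06).

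Outside that class, most other Ch25h UMIs were in a single cluster; mature migratory dendritic cell-like cells of knockout 2 had 4 UMIs, or 16.1 raw CPM. The cluster, led by Ccl7, Mmp12, Ccl2 and Trem2, left unnamed because over 90% of its cells came from 1 genotype, had 1, 0, 18 and 16 cells. It held 72 Ch25h UMIs in knockout 1 and 5 in knockout 2, or 178.7 and 15 raw CPM, so the 2 knockout libraries differed widely. Other members were low in these cells: Abcg1 was at 290 and 353 raw CPM in knockout 1 and 2, against 1217 and 1323 in their alveolar macrophage-like cells, and Hmgcs1 at 24.8 and 26.9, while Abca1, at 86.9 and 65.8, was near its level there. Their 18 enzymes summed to 353 and 281 raw CPM. The best-scoring marker list of the cluster was that of interstitial macrophages. Its 10 alveolar macrophage markers summed to 1212 and 8143 raw CPM in knockout 1 and 2, against 18560 to 21969 in the alveolar macrophage-like class. Ear1, Marco, Krt79 and Fabp1 were at 0 in the cluster. Its cells were then added to the alveolar macrophage-like class, an alternative chosen after seeing the data. The Ch25h log2 fold change was then 1.01 ± 0.13 (edgeR adjusted p = 0.000161). In that setting 9 members were called lower in place of 1, among them Abcg1, Idi1, Sqle, Insig1 and Srebf1. The part of the added cells' unlike markers in these calls was not tested.

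The stretch upstream of Ch25h is shown because it holds a motif that no other matched member has, and those of Hmgcs1 and Fasn for comparison. RefSeq promoter windows (build GRCm38.p6, 250 bases before to 50 after the start) matched 25 of the 31 members. Each was searched on both strands for a sterol regulatory element, to which SREBP binds (TCACNCCAC), a cyclic AMP response element, bound by CREB-type factors (TGACGTCA), a CCAAT box, bound by NF-Y (CCAAT), and a DR4 element, the repeat bound by LXR (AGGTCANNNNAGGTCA, up to 2 mismatches). The 250 bases upstream of 3 members are given 5' to 3' on the gene's strand, with matches to these motifs in capitals. For Hmgcs1 the capitals also include a near match with 1 mismatch to the sterol regulatory element. Coordinates are chr19:34475149-34475398 (minus strand) for Ch25h, chr13:119690101-119690350 (plus strand) for Hmgcs1 and chr11:120824548-120824797 (minus strand) for Fasn.
Ch25h: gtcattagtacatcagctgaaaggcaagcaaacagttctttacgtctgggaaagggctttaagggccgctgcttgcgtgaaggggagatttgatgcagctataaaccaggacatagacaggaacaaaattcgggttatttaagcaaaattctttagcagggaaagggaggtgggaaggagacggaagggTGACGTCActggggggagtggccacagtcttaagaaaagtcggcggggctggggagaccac
Hmgcs1: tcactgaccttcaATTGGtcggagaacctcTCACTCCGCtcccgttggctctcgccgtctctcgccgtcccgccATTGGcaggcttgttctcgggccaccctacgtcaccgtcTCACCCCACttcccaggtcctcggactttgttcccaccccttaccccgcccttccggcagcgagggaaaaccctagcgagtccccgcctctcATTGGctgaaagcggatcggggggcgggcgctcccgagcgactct
Fasn: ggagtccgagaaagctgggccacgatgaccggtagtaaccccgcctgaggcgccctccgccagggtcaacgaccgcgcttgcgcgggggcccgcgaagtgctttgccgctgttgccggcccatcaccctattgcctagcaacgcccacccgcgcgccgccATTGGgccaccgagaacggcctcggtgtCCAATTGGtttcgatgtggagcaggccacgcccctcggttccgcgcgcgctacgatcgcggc

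Ch25h was the 1 member with the cyclic AMP response element, 61 to 54 bases before the start, and 2.03% of all 27025 genes with a window had one. The plan of the search named only the sterol regulatory element and the DR4 element. The cyclic AMP response element and the CCAAT box were outside that plan. Hmgcs1 was the 1 member with an exact sterol regulatory element, 137 to 129 bases before the start, against 1.44% of all genes. With 1 mismatch allowed, 12 of the 25 members and 26.7% of all genes had one. The CCAAT box was in 20 of the 25 members and in 41.1% of all genes; Fasn had 3 matches, 2 of which overlap, and Ch25h had none. The DR4 element was found in 1 of the 25 members, Dhcr7, and in 3.47% of all genes. The LXR target Abcg1 had no window and was not searched, nor were Scd2, Sqle, Fdps, Fdft1 and Stard4. These are matches of letters in a window and do not show that a factor binds there.

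The synthesis enzymes did not move as a block in alveolar macrophage-like cells. Their median log2 fold change was -0.38 over 17 tested enzymes, against 0.00 over all genes, with 12 negative and 5 positive. Tm7sf2, a sterol reductase, had 11, 4, 1 and 0 UMIs and was not tested. Both knockout libraries were above both WT libraries for 4 enzymes and below them for 8 (background for all genes, 25.2% above and 25.9% below). The 20 members that are textbook SREBP-2 targets, the 18 enzymes with Insig1 and Stard4, had 19 genes tested, none called and a median of -0.38.

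Hmgcs1, which makes HMG-CoA for the mevalonate pathway, was at 88.3, 95.1, 123.9 and 64.2 CPM. The knockout libraries lay on both sides of the WT libraries, and the log2 fold change was 0.06 ± 0.22 (95% interval -0.41 to 0.54, edgeR adjusted p = 0.915). Sqle, the squalene epoxidase, which acts on the squalene made by the enzyme of Fdft1, was at 27.2, 31.02, 14.3 and 15.1 CPM. Both knockout libraries were lower, on 17 UMIs, but the change of -0.98 ± 0.33 did not pass (edgeR adjusted p = 0.0806). Idi1, the isopentenyl diphosphate isomerase, was at 53.8, 47.7, 36.5 and 18.9 CPM, with a log2 fold change of -0.84 ± 0.27 and an edgeR adjusted p of 0.0643. It passed in 5 of the 13 alternative settings that gave a value, among them the marker-gated cells (-1.07, adjusted p = 0.0217) and the fit without knockout 1 (-1.44, adjusted p = 0.00764).

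Among the other enzymes, Ebp, the sterol isomerase, lay at 73.8, 78.4, 111.2 and 109.5 CPM, higher in both knockout libraries. Its log2 fold change of 0.54 ± 0.17 missed the threshold (edgeR adjusted p = 0.0582). Dhcr7, which makes the last step to cholesterol, had 26.1, 26.02, 42.9 and 35.9 CPM and a log2 fold change of 0.60 ± 0.25 (edgeR adjusted p = 0.176). The remaining 12 tested enzymes ranged from -0.90 for Sc5d to 0.39 for Mvd, with adjusted p of 0.182 or more. Without knockout 1, Cyp51 (-1.76, edgeR adjusted p = 0.000493) and Sc5d (-2.36, adjusted p = 0.0376) passed as lower, and Cyp51 also passed with no filter on low counts and with the Mmp12 cluster added. Of all 17, 10 were lowest in knockout 2: Cyp51, the lanosterol demethylase, had 60.6, 53.4, 49.2 and 17.0 CPM, and Fdps, the farnesyl diphosphate synthase, had 49.3, 51.4, 60.3 and 30.2 CPM. Knockout 1 exceeded knockout 2 for 13 of the 17 enzymes.

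The genes that control SREBP did not pass either. Srebf2 was at 63.5, 50.7, 47.6 and 28.3 CPM, lower in both knockout libraries, with a log2 fold change of -0.57 ± 0.25 (edgeR adjusted p = 0.195). Insig1, itself an SREBP target, was at 66.5, 52.4, 49.2 and 34.0 CPM, with a log2 fold change of -0.50 ± 0.24 (edgeR adjusted p = 0.235). Srebf1, which drives fatty acid synthesis and is an LXR target, was at 54.6, 56.0, 41.3 and 60.4 CPM and overlapped between genotypes (-0.14 ± 0.22, edgeR adjusted p = 0.792). Scap, Insig2 and Stard4, a sterol carrier, lay between -0.25 and 0.21 (adjusted p of 0.704 or more).

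None of the 4 genes grouped as the LXR arm (Nr1h3, Abca1, Abcg1 and Mylip) passed in the main setting. The interval was narrowest for Abcg1, the most abundant of them. Abcg1 was at 1369.8, 1490.9, 1252.8 and 1359.6 CPM. The knockout libraries were slightly lower, and the log2 fold change of -0.13 ± 0.12 had a 95% interval of -0.37 to 0.11 (edgeR adjusted p = 0.588), which lies wholly below the interval of Ch25h. Abca1 was at 79.9, 89.7, 61.9 and 86.9 CPM, and its interval was -0.60 to 0.20 (log2 fold change -0.20 ± 0.19, edgeR adjusted p = 0.623). Nr1h3 was at 60.6, 52.4, 60.3 and 60.4 CPM, overlapping between genotypes (0.09 ± 0.20, edgeR adjusted p = 0.864). Mylip was at 61.6, 68.7, 28.6 and 52.9 CPM, lower in both knockout libraries, with a log2 fold change of -0.71 ± 0.24 (edgeR adjusted p = 0.0829). Mylip passed as lower in 4 of 14 alternatives: with no filter on low counts, with doublets kept, with the Mmp12 cluster added and without knockout 2 (-1.18, adjusted p = 0.0038), while without knockout 1 it was at -0.32 (adjusted p = 0.628). The 3 efflux and uptake targets had a median of -0.20. With Srebf1, Fasn and Scd2 added, the textbook LXR targets among the members were 6 tested genes with a median of -0.17. All 6 were negative and 1, Fasn, was called lower, where 2.81% of all genes in the class were. An Abcg1 UMI was found in 99.5%, 99.1%, 96.1% and 100% of the macrophage-like cells, and an Abca1 UMI in 37.6%, 40.9%, 31.4% and 50%. In neutrophil-like cells, with medians of 2054 to 2280 UMIs, the Abca1 share was 0.609% to 1.72% and the Abcg1 share 13.6% to 17.2%. An Hmgcs1 UMI was found in 49.5%, 46.1%, 58.8% and 62.5% of the macrophage-like cells, and after thinning in 31.2%, 32.0%, 41.0% and 38.7%, with wide knockout intervals (25.6 to 57.9 and 21.9 to 57.8).

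Fasn (ENSMUSG00000025153, mm10 chromosome 11, 120805846 to 120824547, minus strand, protein coding) makes palmitate and is a target of both SREBP-1 and LXR. In alveolar macrophage-like cells it was at 24.5, 20.01, 7.94 and 7.55 CPM. Both knockout libraries lay below both WT libraries, with 151 WT and 9 knockout UMIs. It fell by 1.52 ± 0.42 on the log2 scale (SE, edgeR, adjusted p = 0.0327). The call was lost when any 1 library was left out (log2 fold change -1.66 to -1.37, adjusted p 0.0575 to 0.29), with marker gates, with the stricter cell filter (-1.16, adjusted p = 0.293), without cycling cells and after thinning (-0.49, adjusted p = 0.752). Scd2, a stearoyl-CoA desaturase, was at 57.6, 72.04, 44.5 and 83.1 CPM in the same cells and overlapped between genotypes (-0.05 ± 0.24, edgeR adjusted p = 0.947).

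Related genes around the members gave calls in some lists and none in others. Over all genes tested in alveolar macrophage-like cells, 3.42% passed as higher and 2.81% as lower. Of 6 tested genes of other sterol and isoprenoid synthesis and of 8 other SREBP machinery genes, none passed in alveolar macrophage-like cells. Of 6 other fatty acid synthesis genes, Scd1, another desaturase, rose by 1.16 ± 0.25 and Acaca, which makes malonyl-CoA, fell by 1.70 ± 0.49 on the log2 scale (edgeR adjusted p = 0.00825 and 0.0405). Acaca was at 22.3, 17.0, 3.18 and 9.44 CPM, on 134 WT and only 7 knockout UMIs. Fasn, the next enzyme of that pathway, also fell on few knockout UMIs. Of 12 other LXR partners and targets, 1 passed: Apoc1, a small apolipoprotein, was at 26.1, 50.4, 3.18 and 1.89 CPM. Apoc1 fell by 3.83 ± 0.79 (edgeR adjusted p = 0.026), on 248 WT and only 3 knockout UMIs. None of 4 tested genes of oxysterol metabolism and sensing passed.

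Sterol handling genes moved in both directions. Of 13 tested genes of lipoprotein uptake and of lysosomal or intracellular sterol handling, 2 rose and 2 fell. Among all genes of the class, 3.42% passed as higher and 2.81% as lower. The list was chosen with earlier results of these data known, so its share of calls cannot be set against that background. Npc2, which binds cholesterol in the lysosome, rose by 0.65 ± 0.12 and Tspo, a mitochondrial membrane protein, by 1.02 ± 0.13 (edgeR adjusted p = 0.00196 and 2.69e-05). The lipid scavenger receptor Cd36 fell by 0.63 ± 0.15 and the lipoprotein receptor Lrp1 by 0.49 ± 0.13 (edgeR adjusted p = 0.0151 and 0.026). Both knockout libraries stood apart from both WT libraries for all 4 genes, for example 356, 273, 200 and 208 CPM for Cd36.

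**Figure D2:**
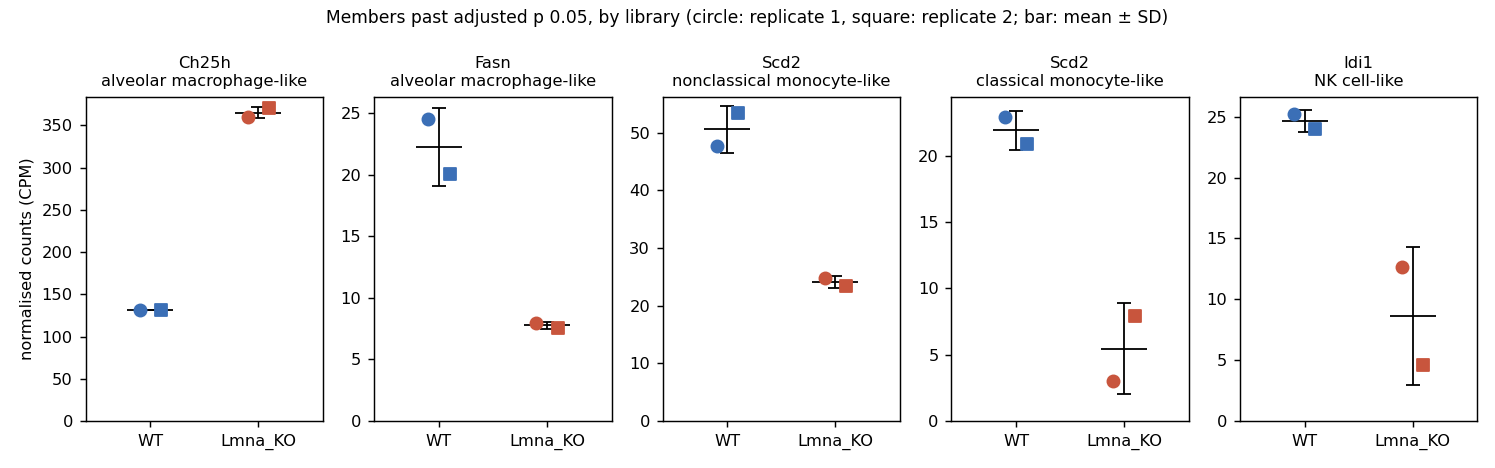
Normalised counts (CPM, linear axes from 0) of the members past an adjusted p of 0.05, 1 point per library, with the mean and SD of the 2 libraries of a genotype. Knockout points lie above WT points for Ch25h and below them in the other 4 panels.

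The second comparison asked whether members differed in the 9 other classes. Over 205 tests of a member in a class, none passed as higher in edgeR and 3 passed as lower (14 had an unadjusted p under 0.05, 10 of them lower, against 8.22% of all tests of a gene in these classes, 4.63% lower). Over all genes in these classes, 0.0915% of tests passed as higher and 0.451% as lower. The 3 calls were Scd2 in nonclassical and in classical monocyte-like cells and Idi1 in NK cell-like cells. In these classes 0.597%, 0.4% and 0.699% of all genes passed as lower, with 28, 23 and 22 members tested. These 3 classes were singled out because they hold a call, so their shares cannot be set against that background. No member passed in the remaining classes. No call fell on the exporters or LXR in any class.

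Scd2 (ENSMUSG00000025203, mm10 chromosome 19, 44293674 to 44306864, plus strand, protein coding) makes monounsaturated fatty acids. In nonclassical monocyte-like cells, the patrolling type, it was at 47.7, 53.5, 24.8 and 23.4 CPM, on 214 WT and 103 knockout UMIs. The genotypes were well separated, and Scd2 fell by 1.06 ± 0.18 on the log2 scale (SE, edgeR, adjusted p = 0.00478, 95% interval -1.44 to -0.69). In classical monocyte-like cells it was at 23.0, 20.9, 3.01 and 7.89 CPM and fell by 1.94 ± 0.36 (edgeR adjusted p = 0.0429), on 81 and 25 UMIs.

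Both falls stood beside differences in other cells' RNA. Markers of CD4 T cells summed to 85.1, 42.5, 21.5 and 6.84 raw CPM in the classical monocyte-like class, and markers of B cells to 154, 181, 47.6 and 56.0 in the nonclassical one. In their own classes these lists summed to 4345 to 5160 and to 7827 to 9371 raw CPM. T cell precursor markers were lower in both knockout libraries of both classes (32.4, 38.3, 8.71 and 11.3 raw CPM in classical, 44.6, 75.5, 35.4 and 8.85 in nonclassical monocyte-like cells). That list shares Cd4 and Cd8a with the CD4 and CD8 T cell lists. Its genes Rag1 and Rag2 were at 0 in the classical class, and Rag2 and Ptcra in the nonclassical one. WT 1 kept no T cell precursor-like cells. CD8 T cell markers in the classical class (76.5, 41.1, 17.9 and 8.45) and platelet markers in the nonclassical one (10.7, 3.87, 0.437 and 0.492) were also lower in both knockout libraries. Scd2 itself was at 8.06 to 15.4 CPM in CD4 T cell-like cells, at 15.5 to 31.4 CPM in B cell-like cells and at 195 raw CPM in the T cell precursor-like cells of WT 2. The part of these cells' RNA in the result was not tested. Without WT 2 the log2 fold changes were -0.98 and -2.02, with edgeR adjusted p of 0.077 and 0.0622; the classical monocyte-like call was also lost without WT 1 (-1.88, adjusted p = 0.3). In neutrophil-like cells Scd2 had 1, 5, 1 and 0 UMIs.

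**Figure D3:**
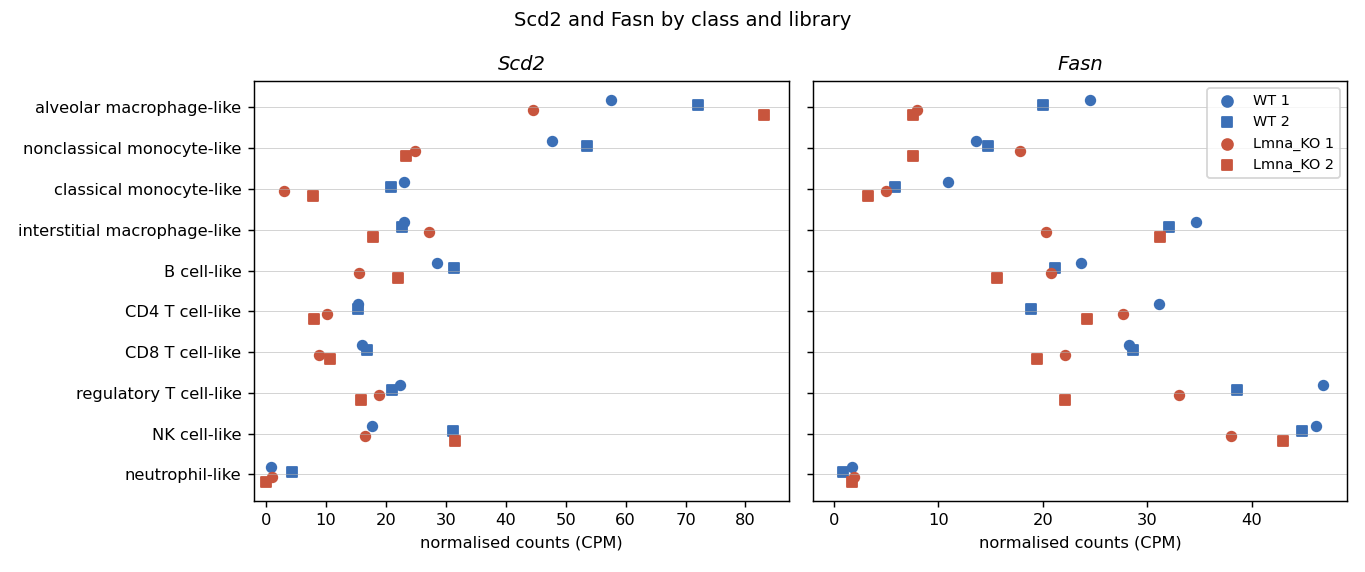
Scd2 and Fasn (CPM, linear axes) in the 10 tested classes, 1 point per library, blue for WT and red for Lmna_KO, circles for replicate 1 and squares for replicate 2. Red points lie left of blue points for Scd2 in both monocyte classes, B, CD4, CD8 and regulatory T cell-like cells, and overlap them in alveolar macrophage-like cells.

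The fatty acid genes leaned the same way across most classes. Scd2 was tested in 9 classes and had a negative log2 fold change in 8; both knockout libraries were below both WT libraries in 6 of the 8 classes other than alveolar macrophage-like cells. The range was -1.94 to 0.10, and 5 classes had an unadjusted p under 0.05, among them B cell-like (28.6, 31.4, 15.5 and 22.0 CPM, edgeR adjusted p = 0.204), CD4 and CD8 T cell-like cells. Fasn was negative in all 9 classes where it was tested, from -1.52 to -0.00, with 1 call, and both knockout libraries were the lowest in 6 of the same 8 classes. For comparison, both knockout libraries were lower in 19.2% of all tests of a gene in the 9 classes other than alveolar macrophage-like cells. The classes come from the same 4 mice and are not independent of each other.

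Idi1 (ENSMUSG00000058258, mm10 chromosome 13, 8885501 to 8892451, plus strand, protein coding) was at 25.3, 24.0, 12.7 and 4.61 CPM in NK cell-like cells, on 63 WT and 19 knockout UMIs. It fell by 1.58 ± 0.39 on the log2 scale (SE, edgeR, adjusted p = 0.0234). Without knockout 2 the change was -0.96 (adjusted p = 0.581), and without WT 1 it was -1.53 (adjusted p = 0.245). The call was also lost with marker gates (-1.44, adjusted p = 0.103). In the same cells Cyp51 was at 20.2, 25.01, 8.76 and 9.98 CPM and Srebf2 at 54.9, 49.0, 37.0 and 33.8 CPM, with adjusted p of 0.134 and 0.346. Srebf2 was negative in 8 of 9 classes tested, with no call, and Ebp was positive in 7 of 10, with no call.

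Across the 9 other classes neither arm of the pathway had medians of only 1 sign. The median log2 fold change of the tested enzymes was negative in B cell-like (-0.16, 17 tested), classical monocyte-like (-0.16, 13 tested), NK cell-like (-0.31, 11 tested) and neutrophil-like cells (-0.10, 5 tested). It was positive in interstitial macrophage-like (0.33, 10 tested), CD8 T cell-like (0.16, 16 tested), nonclassical monocyte-like (0.12, 16 tested), CD4 T cell-like (0.09, 17 tested) and regulatory T cell-like cells (0.065, 9 tested). Apart from Idi1 in NK cell-like cells, no enzyme passed in these classes. For the LXR arm the medians were negative in interstitial macrophage-like (-0.52, 3 tested), classical monocyte-like (-0.32, 2 tested) and nonclassical monocyte-like cells (-0.24, 4 tested). They were also negative in CD8 T cell-like (-0.12, 3 tested), B cell-like (-0.12, 3 tested) and NK cell-like cells (-0.089, 3 tested). Positive medians were found in neutrophil-like (0.12, 2 tested), regulatory T cell-like (0.065, 2 tested) and CD4 T cell-like cells (0.045, 3 tested). Over all 10 classes Abcg1 was negative in 8 and positive in 2, with no call. Single enzymes changed sign between classes: Hmgcs1 was tested in all 10 classes, negative in 5 and positive in 5, from -0.91 to 0.34, and Msmo1, a sterol methyl oxidase, was likewise split, from -0.40 to 0.29.

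The third comparison set the alveolar macrophage-like effect against the mean effect of the other 9 classes in a single edgeR model that also held a term for each library. Counts in every class were needed, so 15 members entered and none passed (1 had an unadjusted p under 0.05), where 4.02% of all 6636 genes passed. Mylip had a difference of -0.62 ± 0.25 (adjusted p = 0.181) and Abcg1 one of -0.13 ± 0.15 (adjusted p = 0.736). With neutrophil-like cells left out of the fit, an alternative chosen after seeing the data, 27 members entered. None passed, while 3.95% of all genes did, and 6 members had an unadjusted p under 0.05 in edgeR. There Scd2 had a difference of 0.60 ± 0.24 (adjusted p = 0.182) and Fasn one of -1.22 ± 0.46 (adjusted p = 0.138). Ch25h could not enter either fit.

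The level of the synthesis enzymes varied widely between classes. The summed level of the 18 enzymes, in raw CPM, was highest in plasmacytoid dendritic cell-like cells (1560, 1743, 1903 and 1258) and, among the tested classes, lowest in neutrophil-like cells (193, 149, 157 and 159). The plasmacytoid class had 25, 25, 13 and 10 cells. Alveolar macrophage-like cells had 671, 653, 676 and 505, and B cell-like cells 232, 262, 238 and 252. Between knockout libraries the sum differed by a ratio of 1.89 in nonclassical monocyte-like cells (755 against 401), where all 16 tested enzymes were higher in knockout 1 than in knockout 2; the WT libraries had 585 and 526. Other lists differed between the same 2 knockout libraries, in knockout 1 against knockout 2: plasma cell markers 722 against 263, CD4 T cell markers 140 against 26.5 and free RNA genes 1104 against 338 raw CPM; their part in the gap was not tested. There Hmgcs1 was at 78.2, 69.2, 121.4 and 51.4 CPM and Sqle at 22.3, 23.1, 44.8 and 10.7 CPM. In classical monocyte-like cells 11 of 13 enzymes were higher in knockout 1, and in B cell-like cells 4 of 17. A library difference of this size within a genotype limits what 2 against 2 libraries can show for the enzymes of monocytes.

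**Figure D4:**
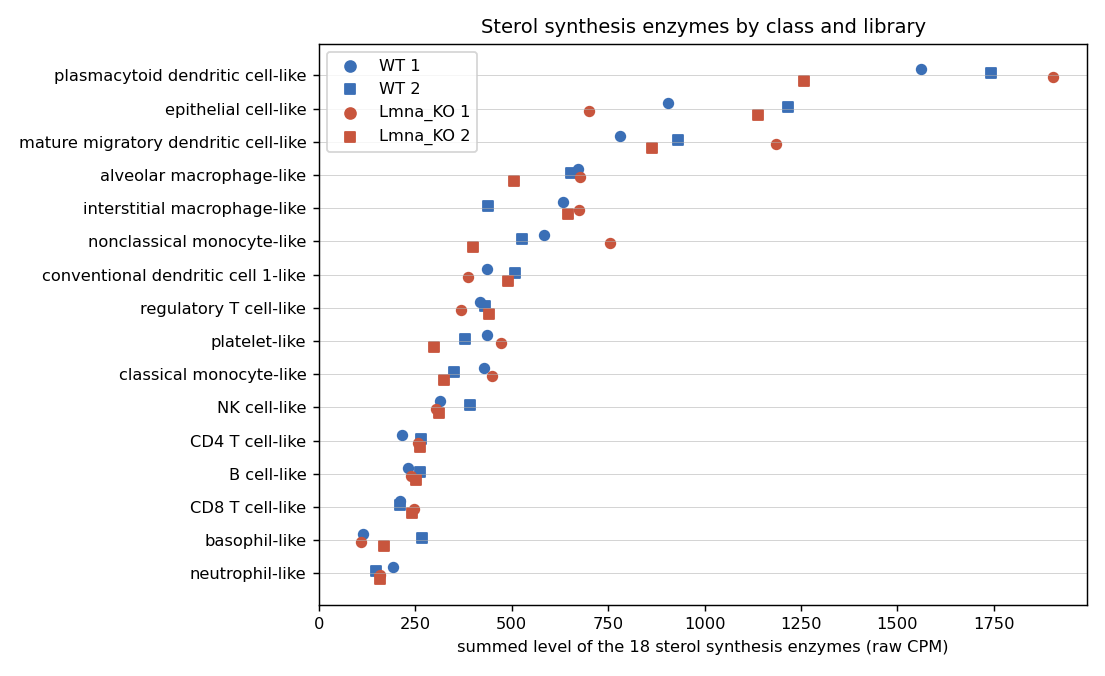
Summed level of the 18 sterol synthesis enzymes (raw CPM, linear axis from 0) in 16 classes, 1 point per library. Plasmacytoid dendritic cell-like cells lie at 1258 to 1903 and neutrophil-like cells at 149 to 193, and in nonclassical monocyte-like cells the 2 knockout libraries lie on either side of the WT ones.

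The enzymes and the LXR arm were highest in different classes. Over 15 classes of immune cells, 13 of the 18 enzymes had their highest mean level in plasmacytoid dendritic cell-like cells, 3 in mature migratory dendritic cell-like cells, 1 (Mvd) in alveolar macrophage-like and 1 (Ebp) in NK cell-like cells. Of the 25, 25, 13 and 10 plasmacytoid cells, 3, 1, 0 and 0 passed the stricter cell filter (at least 500 genes, at most 5% mitochondrial UMIs). Some of these top levels spread widely, such as 0 to 31.7 raw CPM for Lss. In Hmgcs1 the lowest plasmacytoid library (194 raw CPM) exceeded the highest of the next class, alveolar macrophage-like (120). Idi1 was highest in mature migratory dendritic cell-like cells (233 to 323 raw CPM), and its next class, the plasmacytoid one, had 118 to 140. In contrast 3 of the 4 genes of the LXR arm were highest in alveolar macrophage-like cells. Abcg1 there had 1217 to 1501 raw CPM against 62.4 to 90.4 in the next class, neutrophil-like, and 74.9% of all its UMIs. Nr1h3 had 52.7 to 62.0 against 23.6 to 33.4 in nonclassical monocyte-like cells. Abca1 had 60.2 to 90.3 in alveolar macrophage-like and 42.8 to 72.5 in B cell-like cells, which overlap, and Mylip was highest in basophil-like cells (97.8 to 178), followed within its spread by B cell-like cells (94.3 to 109.0). Fasn had 545 to 846 and Scd2 268 to 596 raw CPM in the 51 epithelial-like cells, a lung cell type that the CD45.2 sort should have removed.

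**Figure D5:**
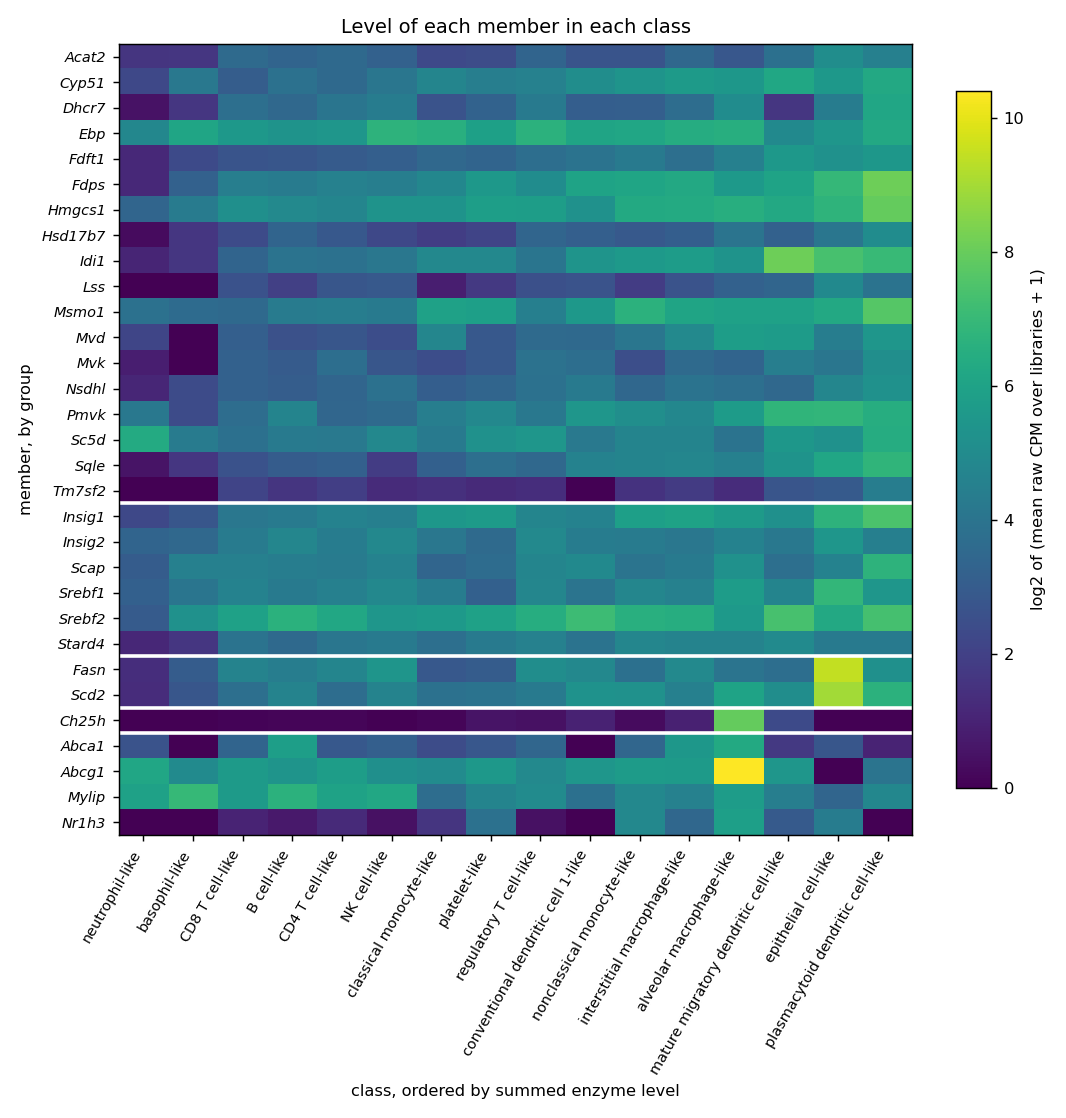
Mean level of each member over libraries, as log2 of raw CPM plus 1 (colour), by class (columns, ordered by summed enzyme level) and by group (rows, white lines between groups). Ch25h and Abcg1 stand out in the alveolar macrophage-like column, Fasn and Scd2 in the epithelial-like column, and most enzymes in the plasmacytoid dendritic cell-like column.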

How the data were processed

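Per the labels, live CD45.2+ lung cells were processed with the Chromium Single Cell 3' v3 kit, and Cell Ranger 3.0.2, Seurat 3.0.0 and mm10 are named in the submitters' processing notes. The values the authors deposited are unnormalised UMI counts by gene and barcode, with no barcode under 500 UMIs, and no free RNA was subtracted here. In all, 15181 cells passed a minimum of 200 genes and a maximum of 10% mitochondrial UMIs, and 461 doublets, found by simulated doublets, were removed. Clusters (leidenalg 0.10.2, resolution 1), built without the sterol genes, were named "X-like" from fixed markers. UMIs were summed per library and class. The replicate was the library, and replicate libraries differed beyond sampling noise. Genes passing filterByExpr were tested with edgeR 4.0.16 (TMM, robust quasi-likelihood, knockout minus WT, Benjamini-Hochberg over all genes of a class, threshold 0.05); DESeq2 1.42.0 was an alternative. The test was checked on simulated counts for alveolar macrophage-like, nonclassical monocyte-like and NK cell-like cells. Of genes given a log2 change of 1, it recovered 46.4%, 64.9% and 57.6%, so many changes of that size were missed. In the same order, 5.07%, 8.72% and 5.62% of its calls were false. A promoter table of RefSeq was searched for motifs. Members that passed anywhere, and 13 fixed genes in alveolar macrophage-like cells, are given by library, and of related lists the genes that passed, at most 6 a list; other genes given by library were chosen after their values were seen. The members and lists were chosen with earlier results of these data known. With 2 mice a genotype, errors beside means are SDs of 2 libraries.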

Additional observations from a re-analysis of the deposited data

Results flagged for a closer look

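Several of the members that passed a test also gave counts in cells that no test covered; raw CPM are as in the report. The unnamed cluster led by Ccl7 and Mmp12 held 77 Ch25h UMIs in the 2 knockout libraries together and 0 in its single WT cell. In unnamed cluster 9, led by Ikzf2, Cxcr3 and Ctla2a, Fasn had 55 knockout UMIs (41.4 and 33.3 raw CPM) against 23.8 and 26.8 raw CPM in WT. In mature migratory dendritic cell-like cells (5, 4, 18 and 19 cells), Idi1 had 138 knockout UMIs (323 and 273 raw CPM) against 260 and 233 in WT, and Scd2 had 27 knockout UMIs (50.7 and 64.3 raw CPM) against 0 and 17.9. In unnamed cluster 17, led by Scgb1a1 and Jchain, Idi1 had 13 knockout UMIs (20.6 and 21.0 raw CPM) against 15.99 and 17.3.

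Idi1 fell in NK cell-like cells, while both knockout libraries were above both WT libraries in CD8 T cell-like cells (log2 fold change 0.27) and in interstitial macrophage-like cells (0.58). The difference between these classes was not tested.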

How the results depend on the processing

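Ch25h was called higher in alveolar macrophage-like cells in the main setting and in all 14 alternatives, with log2 fold changes of 1.01 to 1.64. The number of members called lower there was 1 in the main setting and 4 with no filter on low counts, 2 with doublets kept and 9 with the Mmp12 cluster added. It was 0 with the stricter cell filter, without cycling cells, after thinning and with DESeq2, whose adjusted p for Fasn was NA. With libraries left out it was 0 to 4; without WT 2 it was 1, Idi1 in place of Fasn, without knockout 1 it was 4, Cyp51, Idi1, Sc5d and Srebf2, and without knockout 2 it was 1, Mylip. In the other 9 classes together, DESeq2 called 0 members lower (adjusted p NA for Scd2 in classical monocyte-like cells, 0.205 in nonclassical ones), against 3. Leaving out libraries gave 1 to 5 lower (1 without WT 1 and without WT 2, 5 without knockout 1) and 0 to 3 higher, the 3 without knockout 2. No member was called in the third comparison in any of its 8 alternatives.

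With the replicate block, 0 members were called lower in alveolar macrophage-like cells (Fasn -1.52, adjusted p = 0.0517), and the call of Scd2 in classical monocyte-like cells was lost (-1.96, adjusted p = 0.207); the other calls kept their side. The labels pair no mice, and same-numbered libraries correlated at -0.07 to 0.18 over the classes.

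Genes near 0 in alveolar macrophage-like cells changed sign. Hmgcs1 ranged from -0.53 to 0.44 with libraries left out and was -0.40 with the Mmp12 cluster; Srebf1 ranged from -0.41 to 0.11 and was 0.19 thinned. Abca1 ranged from -0.45 to 0.020. Nr1h3 ranged from -0.020 to 0.19, and was -0.21 with the stricter filter, -0.21 thinned and -0.087 with the Mmp12 cluster. Scd2 ranged from -0.53 to 0.35, and was 0.055 with marker gates and 0.44 thinned. In these cases the cause was not tested.

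Thinning moved the knockout minus WT difference in the share of cells with a UMI from 39.1 to 30.6 percentage points for Ch25h, from 12.8 to 8.25 for Hmgcs1 and from 1.44 to -0.091 for Abca1. A DR4 element with at most 1 mismatch was in 0 members, and a sterol regulatory element with 1 mismatch in 12. Depth limits the knockout macrophage-like values: 83 cells gave 9 Fasn and 17 Sqle UMIs. DESeq2 gave no adjusted p for some low genes.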
